A study of Mus musculus with 12 samples.

Results

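The cytosolic ribosomal protein genes were examined in CD8 T cells sorted with an Rpl18 tetramer, which binds T-cell receptors specific for a peptide of that ribosomal protein. They were taken by name: protein-coding rows called Rpl or Rps followed directly by a digit, Rps6 kinase genes excepted, and Rplp0, Rplp1, Rplp2 and Rpsa, which gave 92 of the 26962 genes in the table. By role, 46 encode proteins of the large subunit and 31 proteins of the small subunit. A further 6 are paralogs (Rpl7l1, Rpl10l, Rpl22l1, Rpl36al, Rpl39l and Rps27l) and 8 carry the name of a copy. The last, Rps19bp1, encodes a protein that binds Rps19 and is not itself a ribosomal protein, but the naming rule takes it, so it is among the genes counted below, and its own values are given separately. Of the 92, 90 had a mean of at least 1 CPM and were tested; Rpl10l and Rpl36-ps4 were not.

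The cells came from mice injected with MC38, a mouse colon carcinoma line, and were sorted on day 10 from the tumor or from the tumor-draining lymph node (TDLN). The 4 groups held 3 libraries each: tumor of mice labelled as lacking TrIP in CD8 cells (KO), a PI3K inhibitor encoded by Pik3ip1, tumor of wild-type (WT) mice, TDLN of KO mice and TDLN of WT mice. All mice carried the tumor and all cells the same sort gate, so no group is without tumor or without antigen specificity, and the driver of the deletion is not given in the sources used here. Libraries are numbered 1, 2 and 3 in KO and 1, 3 and 4 in WT.

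Ribosomal proteins are needed in close to equal number, since each ribosome holds a single copy of nearly all of them. Their transcripts begin with a terminal oligopyrimidine (TOP) tract, through which mTORC1, downstream of PI3K, controls how well they are translated, while Myc raises their transcription. Activated T cells build many ribosomes as they begin to grow and divide. Mammalian genomes also hold many processed pseudogenes of these genes, which are reverse-transcribed copies of the messenger RNA, and a short read from a stretch that a parent and its copy share cannot be assigned to either.

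The copies decide how a value in this table can be read, and the paralogs show the contrast, so the coding sequences of Rps27, Rps27l, Rpl39 and Rpl39l are shown. They were read from GENCODE M21 on GRCm38, a build named in the submitters' processing notes, without the stop codon. Capitals mark the bases of a paralog that differ from Rps27 or Rpl39. Rps27 (chr3:90212522-90213651, minus strand) and Rps27rt (chr9:114982366-114982739, minus strand) have the same 252 coding bases with 0 differences, so only Rps27 is written out. Rps27l (chr9:66946086-66949516, plus strand) differs from it at 60 of 252 bases, and Rpl39l (chr16:10170226-10174911, plus strand) differs from Rpl39 (chrX:37082520-37085402, minus strand) at 23 of 153.
Rps27: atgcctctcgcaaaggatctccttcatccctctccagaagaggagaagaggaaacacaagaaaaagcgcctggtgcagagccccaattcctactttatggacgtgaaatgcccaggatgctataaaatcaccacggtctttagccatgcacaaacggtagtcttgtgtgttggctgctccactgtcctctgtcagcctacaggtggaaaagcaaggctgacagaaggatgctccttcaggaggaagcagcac
Rps27l: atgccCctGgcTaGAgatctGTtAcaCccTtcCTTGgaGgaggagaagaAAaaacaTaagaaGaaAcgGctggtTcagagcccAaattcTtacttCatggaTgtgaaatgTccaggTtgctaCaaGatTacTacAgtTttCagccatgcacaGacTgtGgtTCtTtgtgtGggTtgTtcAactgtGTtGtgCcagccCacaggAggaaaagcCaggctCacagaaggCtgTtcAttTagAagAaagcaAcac
Rpl39: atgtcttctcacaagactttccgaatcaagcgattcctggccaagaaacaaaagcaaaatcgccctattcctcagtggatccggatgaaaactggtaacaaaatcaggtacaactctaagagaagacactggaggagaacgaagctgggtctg
Rpl39l: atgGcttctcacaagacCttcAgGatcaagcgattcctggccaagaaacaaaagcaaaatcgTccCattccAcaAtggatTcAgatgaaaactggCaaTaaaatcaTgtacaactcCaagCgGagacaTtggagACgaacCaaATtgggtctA
With differences spread along the whole length, reads of Rps27l and Rpl39l can be assigned, and reads within the coding part of Rps27 and Rps27rt cannot. In KO tumor, Rps27rt was listed at 81899, 69358 and 57616 normalized counts and Rps27 at 8742, 6958 and 5455. How reads were divided between such rows by the authors' counting is not given in the sources used here.

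This division affected most ribosomal proteins. Transcripts of 1002 genes that are not among the 92 matched a ribosomal protein's coding sequence at 90% identity or more over 50% or more of its length. Of these copies, 990 are annotated as processed pseudogenes and 753 bear only a predicted-gene name. The 92 genes held 4.11% to 4.41% of all values in KO tumor, 3.76% to 4.2% in WT tumor, 4.02% to 4.07% in KO TDLN and 3.54% to 4.02% in WT TDLN. The copies held more, at 9.42% to 10.7% in KO tumor, 9.71% to 10.5% in WT tumor, 10.4% to 11.3% in KO TDLN and 9.82% to 10.8% in WT TDLN. Each gene was therefore also summed with its copies, which gave 83 families, 82 of them tested. The gene's own row was a median 18.6% of its family, from 4.68% for Rps12 to 100% for the 5 genes without a copy, such as Rpl39l and Rpl41. Gm2000, a copy 99.73% identical to Rpl35, had a mean of 61500 normalized counts, and Rpl37rt, a copy of Rpl37, had 50001. Reads over stretches that a gene and a copy share cannot be assigned to either, while reads over a base that differs can, so values with copies added are given beside the main results below.

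**Figure D1:**
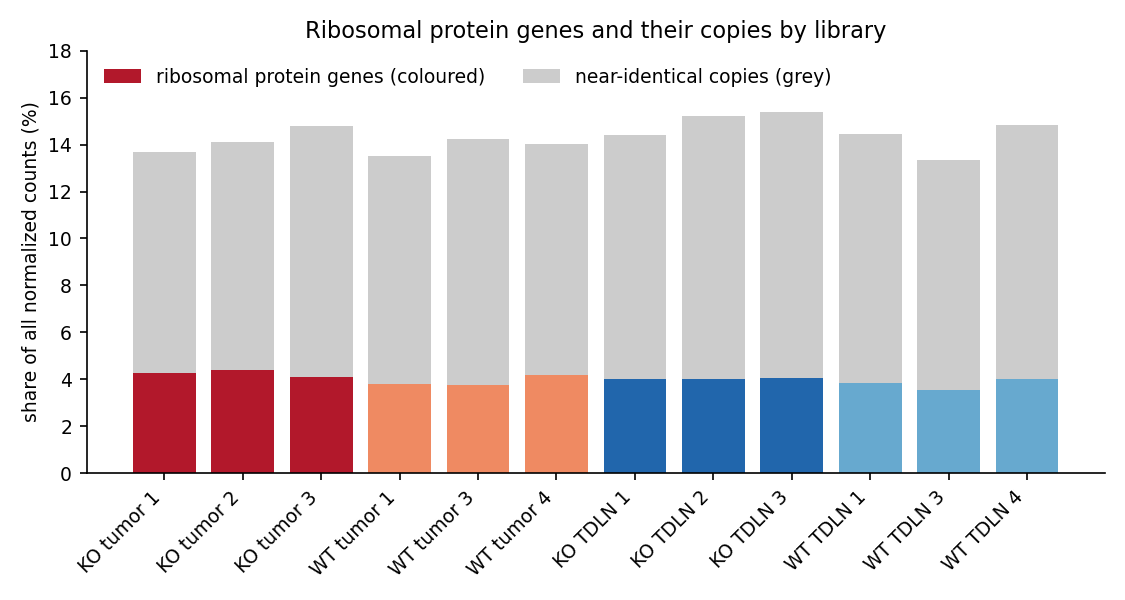
Share of all normalized counts (vertical axis, %) in the ribosomal protein genes (coloured part) and in their near-identical copies (grey part), 1 bar per library. The genes hold 3.54% to 4.41% and the copies 9.42% to 11.3%, so the grey part is the larger in all 12 libraries.

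Column totals lay between 22113970 and 26490590 normalized counts, from a depth in genes estimated at 18.3 M to 36.9 M reads. All 16 CD8 T-cell markers listed were detected in every group and together held 0.482% to 0.819% of values. Pik3ip1, the gene named as deleted, stood at 173, 95.2 and 55.5 normalized counts in KO tumor, against 179, 119 and 138 in WT tumor, and at 854, 1009 and 1573 in KO TDLN, against 607, 1095 and 834 in WT TDLN. The TDLN libraries labelled KO were not lower. A value for the whole gene cannot show the deletion of an exon, so the deletion was not tested and KO below is the label of a library. Xist, the transcript that silences an X chromosome in female cells, stood at 2485 to 3845 normalized counts in replicate 3 of each group and at 2.54 or less in the other libraries. The labels do not say that replicates are separate mice, so p-values measure the spread between these samples.

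The comparison of tumor with TDLN asks how the ribosomal protein transcripts of these T cells differ between the tumor and the node that drains it. In KO, 11 of the 90 genes tested were higher in tumor and 2 lower, where 18.1% of all 16065 genes tested were called higher and 12.6% lower (limma, Benjamini-Hochberg adjusted p under 0.05). Differences are on the log2 scale after adding the equivalent of 1 CPM to each value, and are tumor minus TDLN unless stated. In WT, 10 were higher and 3 lower, against 15.9% and 10.9% of all genes. In this fit the share called was thus no larger than that of all genes in either direction. Groups that did not overlap gave another balance. Every tumor value lay above every TDLN value for 36 of the 90 in KO, against 27.5% of all genes, and for 26 in WT, against 22.8%. Every tumor value lay below for 11 in KO, against 22.7% of all genes, and for 3 in WT, against 17%. In the deposited values, the share without overlap was thus larger than that of all genes upward and smaller downward. Every tumor column summed to 25321838 normalized counts or more, and no TDLN column exceeded 24507186. Overlap was not counted again after scaling columns to a common total, so the part of this offset in these counts was not tested. The median log2 difference was 0.14 in KO and 0.18 in WT, where all genes tested stood at 0.05 in both. Without WT TDLN replicate 3 the WT median was 0.07, with 57 of 90 above 0 in place of 72. Columns scaled to a common total gave 11 higher and 7 lower in KO, and 5 higher and 5 lower in WT; in WT the median of all genes was then -0.11 and that of the ribosomal protein genes 0.00. The 2 genotypes share no library, and 7 genes were called higher in both (63.6% of the KO list, 70% of the WT list): Rpl26, Rpl32, Rpl34, Rpl37, Rps14, Rps15a and Rps27. Over all genes tested, 2086 were higher in both, 71.9% of the KO list and 81.5% of the WT list, so the overlap was no larger among the ribosomal protein genes. Rpl7l1 was lower in both.

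These counts rest on few libraries. In KO, the 11 higher became 3 without tumor replicate 1, 4 without tumor replicate 2, 3 without TDLN replicate 1, 4 without TDLN replicate 2 and 7 without TDLN replicate 3. The 2 lower became 1 when any of these 5 libraries was left out, and 3 without KO tumor replicate 3. In WT, the 10 higher became 6 without WT tumor replicate 1, 16 without WT tumor replicate 3, 2 without WT tumor replicate 4 and 4 without WT TDLN replicate 3. The 3 lower in WT became 1 without WT tumor replicate 1 and 0 when WT tumor replicate 4 or replicate 3 or 4 of WT TDLN was left out. In the same refits, the higher calls over all genes went to between 2026 and 2715 in KO, against 2902 with all libraries, and to between 1841 and 2920 in WT, against 2560. The lower calls over all genes went to between 1030 and 2113 in KO, against 2017, and to between 1085 and 2129 in WT, against 1752. Rps15a and Rpl34 kept their call in both genotypes under all 21 alternatives run for each, and Rpl37 and Rpl7l1 did so in KO.

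**Figure D2:**
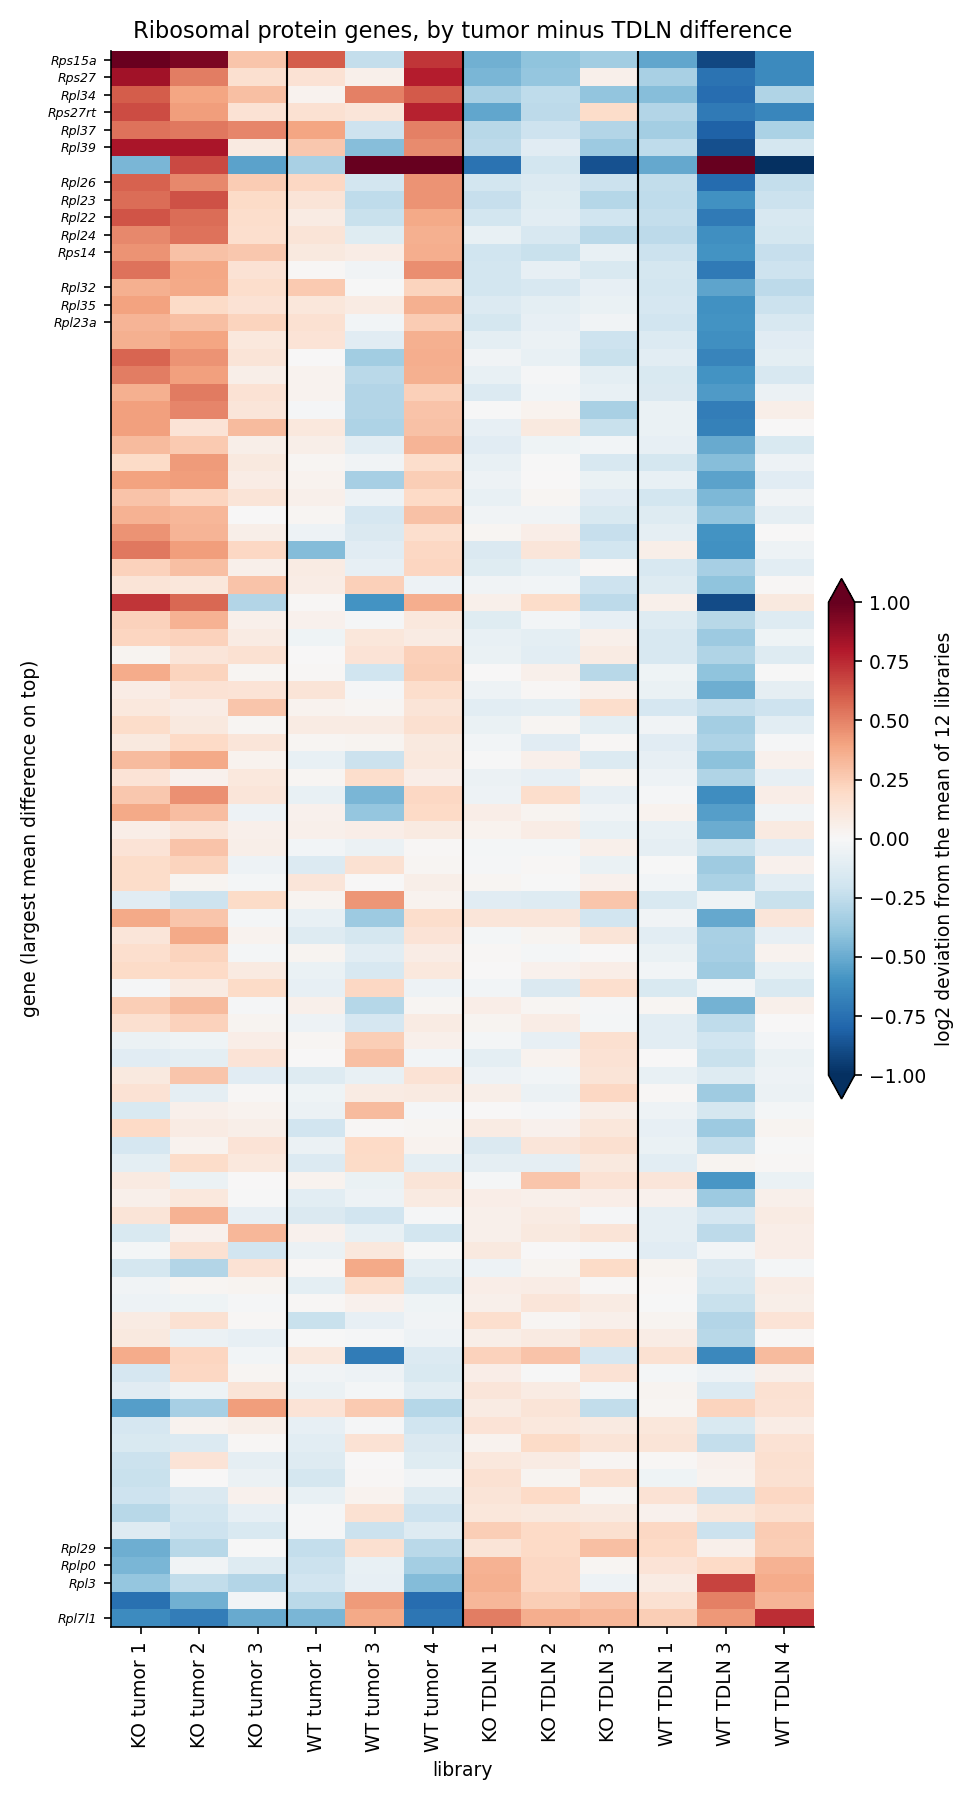
Log2 deviation of each of the 90 genes tested from its mean over 12 libraries (colour, values beyond 1 saturated), with libraries in columns and genes in rows, sorted by the mean of the KO and WT differences between tumor and TDLN. Names mark the genes called between tissues in either genotype. Rps15a is at the top and Rpl7l1 at the bottom, most rows between them are pale in most libraries, and the column of WT TDLN replicate 3 is low over much of the upper part.

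Among small subunit proteins, Rps15a (chromosome 7, 118104372 to 118116188 on GRCm38, minus strand) had the largest log2 difference among the ribosomal protein genes called in either genotype. It averaged 16053 ± 4031 normalized counts in KO tumor, against 7080 ± 332 in KO TDLN, and 12611 ± 4043 in WT tumor, against 5870 ± 792 in WT TDLN (SD, n = 3 each). By library it stood at 18696, 18049 and 11414 in KO tumor, against 6729, 7121 and 7390 in KO TDLN. WT tumor held 14366, 7988 and 15481, against 6567, 5009 and 6034 in WT TDLN. All tumor libraries lay above all TDLN libraries, with WT tumor replicate 3 the lowest of the tumor values. On the log2 scale the difference was 1.15 in KO (SE 0.25, limma adjusted p = 0.00495) and 1.05 in WT (SE 0.25, limma adjusted p = 0.00887). With its 11 copies added, it was 0.99 in KO (limma adjusted p = 0.00504) and 1.05 in WT (limma adjusted p = 0.00401).

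Rps27, a zinc-finger protein of the small subunit, stood at 8742, 6958 and 5455 normalized counts in KO tumor, against 3550, 3722 and 5042 in KO TDLN. WT tumor held 5405, 5048 and 8405, against 3899, 2910 and 3136 in WT TDLN. Tumor lay above TDLN within each genotype, by the least between KO tumor replicate 3 and KO TDLN replicate 3. Tumor exceeded TDLN by a log2 difference of 0.77 in KO (SE 0.24, limma adjusted p = 0.0272) and 0.89 in WT (SE 0.24, limma adjusted p = 0.0149). Rps27rt, with the same coding sequence, differed by 0.61 in KO (limma adjusted p = 0.0583) and 0.90 in WT (limma adjusted p = 0.0116), and their family by 0.63 (limma adjusted p = 0.048) and 0.90 (limma adjusted p = 0.0104). Rps27l, the paralog printed beside it, stood at 8641, 7742 and 6545 in KO tumor and 7815, 8128 and 5933 in KO TDLN, and at 7155, 4092 and 6043 in WT tumor and 7407, 4247 and 8292 in WT TDLN. Its tissues overlapped in both genotypes, with log2 differences of 0.07 in KO and -0.19 in WT (limma adjusted p = 0.862 and 0.632). The Rps27 call was lost in KO without replicate 1 or 2 of tumor or of TDLN, at 0.60 to 0.77, and in WT without tumor replicate 4, at 0.66, or without TDLN replicate 3 or 4, at 0.80 and 0.86. Rps27rt lost its WT call without WT tumor replicate 4, at 0.68. Whether Rps27 and Rps27l differ from each other was not tested.

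The other small subunit gene called in both genotypes was Rps14, whose human counterpart is lost in the anemia of the 5q deletion syndrome. It had log2 differences of 0.50 in KO (limma adjusted p = 0.0194) and 0.53 in WT (limma adjusted p = 0.0172). Of the 31 small subunit genes, 3 were higher and 0 lower in KO, and in WT the 3 called were again Rps14, Rps15a and Rps27. Rps6, the S6 kinase substrate whose phosphorylation reads out PI3K and mTORC1 activity, had log2 differences of -0.12 in KO and 0.06 in WT (limma adjusted p = 0.464 and 0.74). Rps4x, an X-linked protein, had 0.30 and 0.25 (limma adjusted p = 0.168 and 0.264). Rpsa, also known as a laminin receptor, had -0.13 and -0.15 (limma adjusted p = 0.486 and 0.404). These are values of the genes' own rows. With copies added, the family of Rpsa was called lower in KO, and those of Rps6 and Rps4x were called in neither genotype. The median over the small subunit genes was 0.19 in KO.

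Among large subunit proteins, Rpl34 (chromosome 3, 130726831 to 130730398, minus strand) stood at 10878, 9431 and 8841 normalized counts in KO tumor, against 5715, 6007 and 5426 in KO TDLN. WT tumor held 7337, 10158 and 10962, against 5326, 4216 and 5803 in WT TDLN. The tissues did not overlap in either genotype. That was a log2 difference of 0.76 in KO (SE 0.18, limma adjusted p = 0.00732) and 0.88 in WT (SE 0.18, limma adjusted p = 0.00352), and with 10 copies added 0.66 (limma adjusted p = 0.00839) and 0.87 (limma adjusted p = 0.00189).

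Rpl37, a zinc-binding protein of the large subunit, stood at 14961, 14758 and 14351 normalized counts in KO tumor, against 8455, 8873 and 8354 in KO TDLN. WT tumor held 13428, 8843 and 14513, against 8067, 5839 and 8205 in WT TDLN. The KO groups were tight and far apart, while WT tumor replicate 3 lay close to the WT TDLN values. The log2 difference was 0.78 in KO (SE 0.19, limma adjusted p = 0.00914) and 0.72 in WT (SE 0.19, limma adjusted p = 0.0151). With 6 copies added it was 0.65 in KO (limma adjusted p = 0.017) and 0.64 in WT (limma adjusted p = 0.0201). The WT call of Rpl37 was lost without WT tumor replicate 1, at 0.64, WT tumor replicate 4, at 0.58, or WT TDLN replicate 3, at 0.56. Rpl26 and Rpl32 were the other large subunit genes called in both genotypes. Rpl26, which lies near the exit of the peptide tunnel, had log2 differences of 0.62 in KO and 0.58 in WT (limma adjusted p = 0.0265 and 0.04), and Rpl32 had 0.44 and 0.48 (limma adjusted p = 0.0255 and 0.0193). With 11 copies added, Rpl26 had 0.48 and 0.51 (limma adjusted p = 0.048 and 0.0413). Rpl26 kept its KO call only when KO tumor replicate 3 was the library left out, with 0.55 to 0.64 without any other, and lost its WT call without replicate 1 or 4 of tumor or replicate 3 or 4 of TDLN, at 0.40 to 0.67. The WT call of Rpl26 was also lost on a common column total, on a common upper quartile and under quantile normalization. In all it was lost under 11 of 21 alternatives.

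Rpl39, a small protein that lines the peptide exit tunnel, stood at 21871, 21867 and 13192 normalized counts in KO tumor, against 10338, 11482 and 9664 in KO TDLN. WT tumor held 14985, 9243 and 17218, against 10414, 6749 and 10982 in WT TDLN. The tissues parted in KO and overlapped in WT through WT tumor replicate 3. Its log2 difference was 0.82 in KO (SE 0.27, limma adjusted p = 0.0359) and 0.54 in WT (SE 0.27, limma adjusted p = 0.154). The KO call held without KO tumor replicate 3 and was lost without any other single KO library, at 0.70 to 0.89. Rpl39l, the paralog shown with it, which is abundant in male germ cells, stood at 14.6, 60.9 and 12.5 in KO tumor and 7.74, 23 and 4.8 in KO TDLN, and at 18.5, 138 and 89 in WT tumor and 13.1, 122 and 0 in WT TDLN. Those values spread too widely for either call, at log2 differences of 0.48 in KO and 0.85 in WT (SE 0.64, limma adjusted p = 0.601 and 0.352).

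Further large subunit genes were called in a single genotype. Rpl23, Rpl22 and Rpl24 were higher in KO tumor than in KO TDLN, at log2 differences of 0.67, 0.62 and 0.57 (limma adjusted p = 0.02, 0.0305 and 0.0292), and stood at 0.47, 0.45 and 0.47 in WT (limma adjusted p = 0.0934, 0.107 and 0.0653). Rpl35 and Rpl23a, which flank the tunnel exit, were higher in WT tumor than in WT TDLN, at 0.52 and 0.44 (limma adjusted p = 0.0228 and 0.0485), and stood at 0.35 and 0.39 in KO (limma adjusted p = 0.0963 and 0.0739). No gene of all tested had a tissue difference that differed between genotypes at the threshold, as given below. Rpl22 lost its KO call without any single KO library but tumor replicate 3, at 0.53 to 0.65, Rpl23 likewise but for TDLN replicate 2 as well, at 0.59 to 0.66, and Rpl35 its WT call without WT tumor replicate 4 or WT TDLN replicate 3, at 0.43 and 0.38. The WT call of Rpl35 was also lost on a common column total, with or without the ribosomal protein genes in it, and under quantile normalization. It was lost as well with only the compared groups or no intensity trend, and so under 7 of 21 alternatives. With copies added, Rpl22, Rpl23, Rpl24, Rpl32 and Rps14 were no longer called in KO. The 9 families called higher in WT and the 6 in KO all had the gene's own row called as well. Rpl22 is needed for the development of alpha-beta T cells in mice, and its paralog Rpl22l1 had log2 differences of 0.34 in KO and 0.17 in WT (limma adjusted p = 0.457 and 0.726). Rpl5 and Rpl11, which bind Mdm2 when ribosome assembly is disturbed, had 0.28 and 0.12 in KO and 0.17 and 0.12 in WT (limma adjusted p from 0.234 to 0.583). Rpl10, which joins the large subunit late in its maturation, had 0.14 and 0.12, and Rpl36a and Rpl36al had 0.50 and 0.07 in KO and 0.30 and 0.23 in WT, all short of the threshold. With copies added, the families of Rpl5, Rpl10, Rpl11, Rpl36a and Rpl36al were called in neither genotype.

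**Figure D3:**
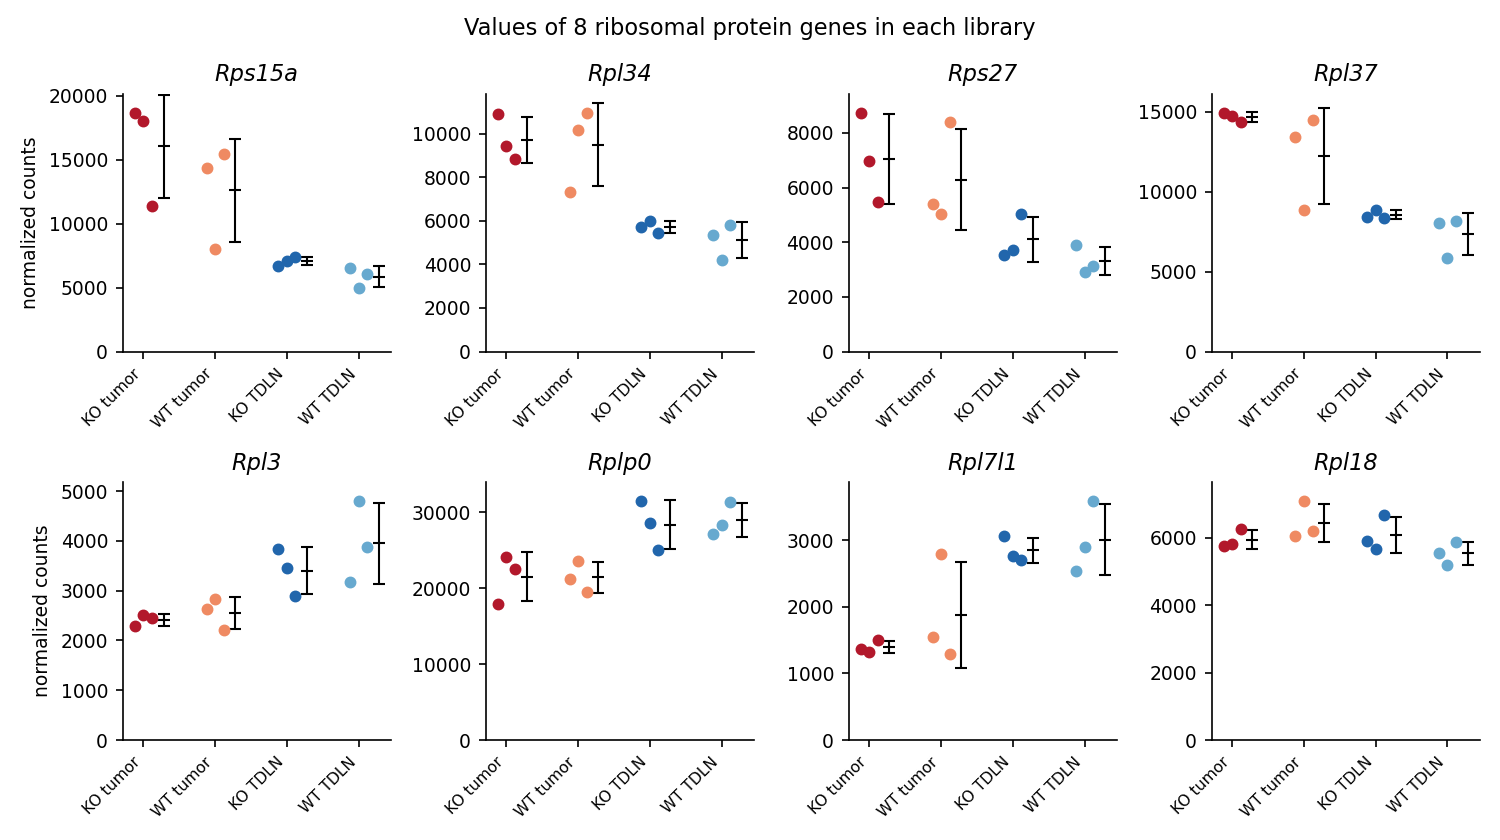
Normalized counts of 8 ribosomal protein genes in each library (points), with the mean and SD of each group of 3 beside them, on axes that start at 0. For Rps15a, Rpl34, Rps27 and Rpl37 every tumor value lies above the TDLN values of its genotype, for Rpl7l1 KO tumor lies at 1318 to 1501 against 2708 to 3067 in KO TDLN, and for Rpl18 the groups lie between 5204 and 7088.

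The genes called lower in tumor were Rpl7l1 and Rpl29 in KO, and Rpl3, Rplp0 and Rpl7l1 in WT. Rpl3, which reaches towards the peptidyl transferase centre, stood at 2288, 2518 and 2447 normalized counts in KO tumor, against 3837, 3456 and 2898 in KO TDLN. WT tumor held 2627, 2831 and 2210, against 3169, 4799 and 3878 in WT TDLN. All tumor values lay below all TDLN values. The log2 difference was -0.48 in KO (SE 0.18, limma adjusted p = 0.0617) and -0.61 in WT (SE 0.18, limma adjusted p = 0.0255), and with 18 copies added -0.76 (limma adjusted p = 0.00792) and -0.69 (limma adjusted p = 0.0146). The WT call of the gene's own row was lost without WT tumor replicate 4, at -0.51, or replicate 3 or 4 of WT TDLN, at -0.46 and -0.61.

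Rplp0, the base of the stalk that recruits elongation factors, stood at 17965, 24091 and 22569 normalized counts in KO tumor, against 31494, 28576 and 25063 in KO TDLN. WT tumor held 21270, 23543 and 19542, against 27194, 28389 and 31432 in WT TDLN. Tumor again lay below TDLN throughout, with log2 differences of -0.40 in KO (SE 0.15, limma adjusted p = 0.0587) and -0.44 in WT (SE 0.15, limma adjusted p = 0.0475). Its family differed by -0.70 in KO (limma adjusted p = 0.014) and -0.56 in WT (limma adjusted p = 0.0408). Its WT call was lost without any single WT library but tumor replicate 3, at -0.48 to -0.37. That call was lost under 10 of 21 alternatives in all, among them no filter and only the compared groups. The partners that Rplp0 carries on the stalk, Rplp1 and Rplp2, had 0.13 and 0.00 in KO and 0.11 and -0.07 in WT (limma adjusted p from 0.507 to 0.992). With copies added, the families of Rplp1 and Rplp2 were called in neither genotype.

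Rpl7l1, a paralog of Rpl7 found on maturing large subunits in human cells, stood at 1374, 1318 and 1501 normalized counts in KO tumor, against 3067, 2765 and 2708 in KO TDLN. WT tumor held 1554, 2791 and 1289, against 2538, 2904 and 3587 in WT TDLN. The KO tissues parted widely, and WT tumor replicate 3 lay within the TDLN range. Its log2 difference was -1.01 in KO (SE 0.24, limma adjusted p = 0.00846) and -0.74 in WT (SE 0.24, limma adjusted p = 0.041). The KO call held without any single library, while the WT call was lost without replicate 1 or 4 of tumor or replicate 3 or 4 of TDLN, at -0.76 to -0.51. The WT call of Rpl7l1 was lost under 8 of 21 alternatives in all, among them no filter and only the compared groups. With 4 copies added it was -1.14 in KO (limma adjusted p = 0.00411) and -0.81 in WT (limma adjusted p = 0.0264). Rpl7 itself had 0.15 in KO and 0.27 in WT (limma adjusted p = 0.389 and 0.126). Rpl29, a large subunit protein also known for binding heparin, was lower in KO tumor at -0.47 (limma adjusted p = 0.0457) and stood at -0.28 in WT (limma adjusted p = 0.216). It lost the KO call without any single KO library but tumor replicate 3, at -0.51 to -0.35, and with 60 copies added stood at -0.49 in KO (limma adjusted p = 0.0403).

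Adding the copies gave fewer higher and more lower calls in KO. In KO, 6 of 82 families were then higher in tumor and 10 lower, where 18.8% of the 15286 rows tested with copies added were called higher and 12.9% lower, and the median log2 difference was 0.00. The share called higher was thus below that of all rows, and the share called lower was no larger. The families lower in KO included those of Rpl3, Rpl4, Rpl7l1, Rpl29, Rplp0, Rps2, Rps3, Rps9 and Rpsa. The 10 lower became 2 without KO tumor replicate 1, 3 without KO tumor replicate 2 or any single KO TDLN library, and 12 without KO tumor replicate 3. In the same refits, the lower calls over all rows went to between 1020 and 2047, against 1970 with all libraries. The 6 higher became 3 without replicate 1 or 2 of KO tumor or replicate 2 of KO TDLN, 2 without replicate 1 of KO TDLN and 4 without replicate 3 of that group. Higher calls over all rows then went to between 2014 and 2676, against 2867. In WT, 9 families were higher and 3 lower, against 16.5% and 11.3% of all rows, with a median of 0.15. The 9 became 3 without WT tumor replicate 4 or WT TDLN replicate 3 and 5 without WT tumor replicate 1, and the 3 became 0 without WT tumor replicate 4 or WT TDLN replicate 3 and 1 without WT tumor replicate 1 or WT TDLN replicate 4. Leaving out each WT library in turn gave between 1832 and 2864 higher over all rows, against 2520. It gave between 1077 and 2073 lower, against 1733. The family of Rps2, an Arg-methylated protein at the entry of the messenger RNA channel, differed by -0.70 in KO (limma adjusted p = 0.0488) and -0.50 in WT (limma adjusted p = 0.159). That of Rpl4, whose long loop lines the exit tunnel, differed by -0.52 and -0.19 (limma adjusted p = 0.0337 and 0.417).

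**Figure D4:**
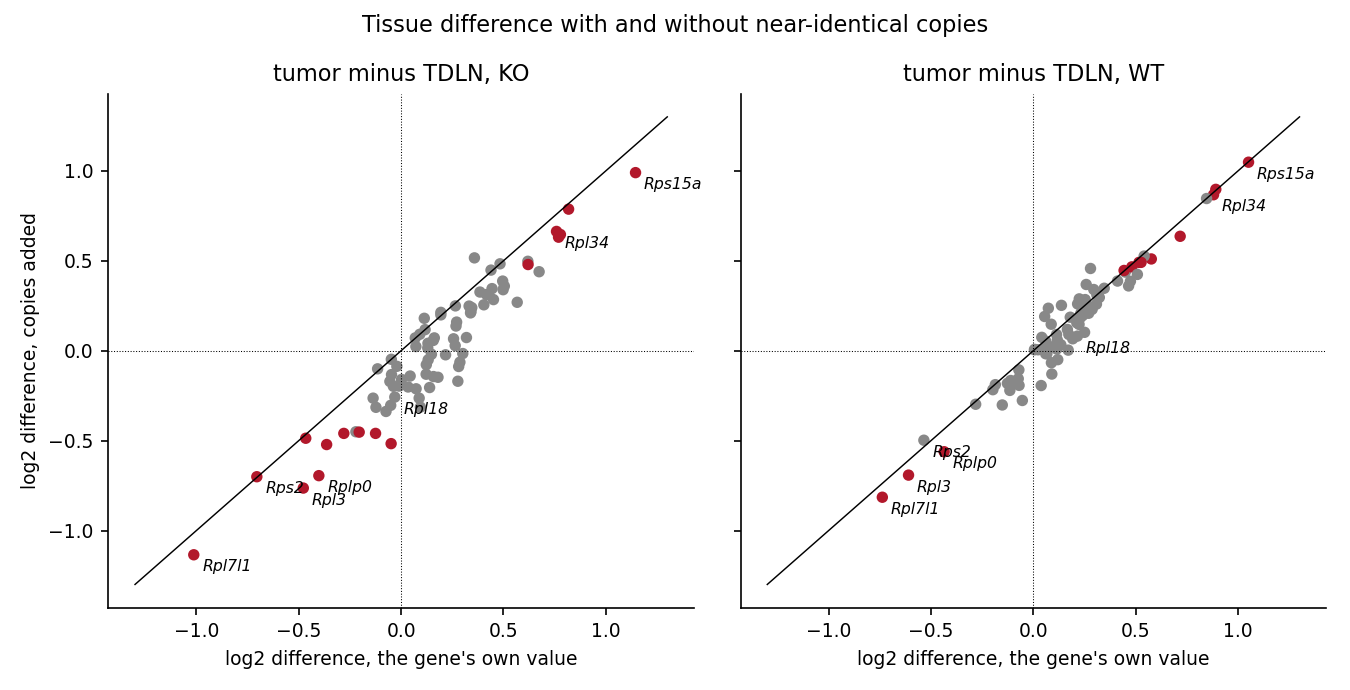
Log2 difference between tumor and TDLN with copies added (vertical axis) against that of the gene's own row (horizontal axis), KO on the left and WT on the right, with the line of equality. Red points are families called at an adjusted p under 0.05. Most points lie below the line, further in KO (medians of 0.14 over the genes' own rows and 0.00 with copies) than in WT (0.18 and 0.15).

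The tumor libraries also differed from the TDLN libraries in transcripts of other cells. All 20 macrophage and monocyte markers were detected, and together they held 0.184% to 0.387% of values in KO tumor, against 0.0572% to 0.0983% in KO TDLN, and 0.12% to 0.305% in WT tumor, against 0.0488% to 0.0776% in WT TDLN. Of these, 18 were higher in KO tumor and 17 in WT tumor, and C1qc, Cd14 and Ms4a7 were at 0 in all TDLN libraries. The 9 fibroblast markers held 0.0192% to 0.0677% in KO tumor and 0.0214% to 0.131% in WT tumor, against at most 0.000129% in TDLN. The 11 B-cell markers went the other way, at 0.0032% to 0.00516% in KO tumor, against 0.0277% to 0.0458% in KO TDLN, and 0.00338% to 0.00999% in WT tumor, against 0.0229% to 0.0311% in WT TDLN. Their part in the tissue differences was not tested. In such bulk samples, fewer cells of a type and less RNA per cell cannot be told apart.

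Rpl18, the gene whose product gives the tetramer its name, differed little. It lies on chromosome 7 (45715457 to 45720836, plus strand) and encodes a large subunit protein. It stood at 5744, 5816 and 6269 normalized counts in KO tumor and 5902, 5663 and 6684 in KO TDLN, and at 6051, 7088 and 6195 in WT tumor and 5546, 5204 and 5880 in WT TDLN. The KO tissues overlapped, while the WT tumor values all lay above the WT TDLN values. The log2 difference between tissues was -0.03 in KO (95% interval -0.32 to 0.26, limma adjusted p = 0.881) and 0.21 in WT (95% interval -0.07 to 0.50, limma adjusted p = 0.247). Between genotypes it was -0.11 in tumor (95% interval -0.40 to 0.17) and 0.13 in TDLN (95% interval -0.15 to 0.42). Its own row was 16.6% of its family of 5 copies, whose tissue differences were -0.26 in KO and 0.08 in WT (limma adjusted p = 0.267 and 0.754).

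Across the ribosomal proteins, the difference between tissues went with the length of the protein. Spearman's rho between the log2 tissue difference of 82 families and coding length was -0.73 in KO and -0.64 in WT. For the genes' own rows it was -0.56 and -0.52 over 90 genes, and for 11196 other protein-coding genes 0.17 and 0.10. All points of a comparison share the same 6 libraries and genes are not independent replicates, so these are descriptions. In KO, the 29 families under 400 coding bases had a median log2 difference of 0.24, with 27 above 0, the 38 from 400 to under 700 bases -0.11, with 13 above 0, and the 15 of 700 or more -0.34, with 1 above 0. In WT the medians were 0.29, 0.07 and -0.18. Leaving out each library in turn gave rho between -0.74 and -0.70 in KO and between -0.73 and -0.48 in WT.

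Libraries of 1 group also differed in this way. Taking each library's family levels against the mean of its tissue, rho with coding length was positive in KO tumor replicate 3 (0.48), WT tumor replicate 1 (0.36) and WT tumor replicate 3 (0.70), and negative in KO tumor replicate 1 (-0.67), KO tumor replicate 2 (-0.60) and WT tumor replicate 4 (-0.69). Each library is part of its tissue mean, so a library far from that mean moves the others to the opposite side. Signs of both kinds within a tissue are therefore no result in themselves. In TDLN, WT TDLN replicate 3 stood alone at 0.68, against -0.49 to -0.08 in the other 5 libraries. Its families under 400 bases lay a median 0.40 below the tissue mean on the log2 scale, and those of 700 bases or more 0.01 below it. WT tumor replicate 3 showed the same contrast, with the short families 0.29 below the tumor mean and the long ones 0.26 above it. Both are replicate 3 libraries with Xist, while KO TDLN replicate 3, which also has Xist, was at -0.11. The part of library preparation or RNA quality in this relation was not tested.

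**Figure D5:**
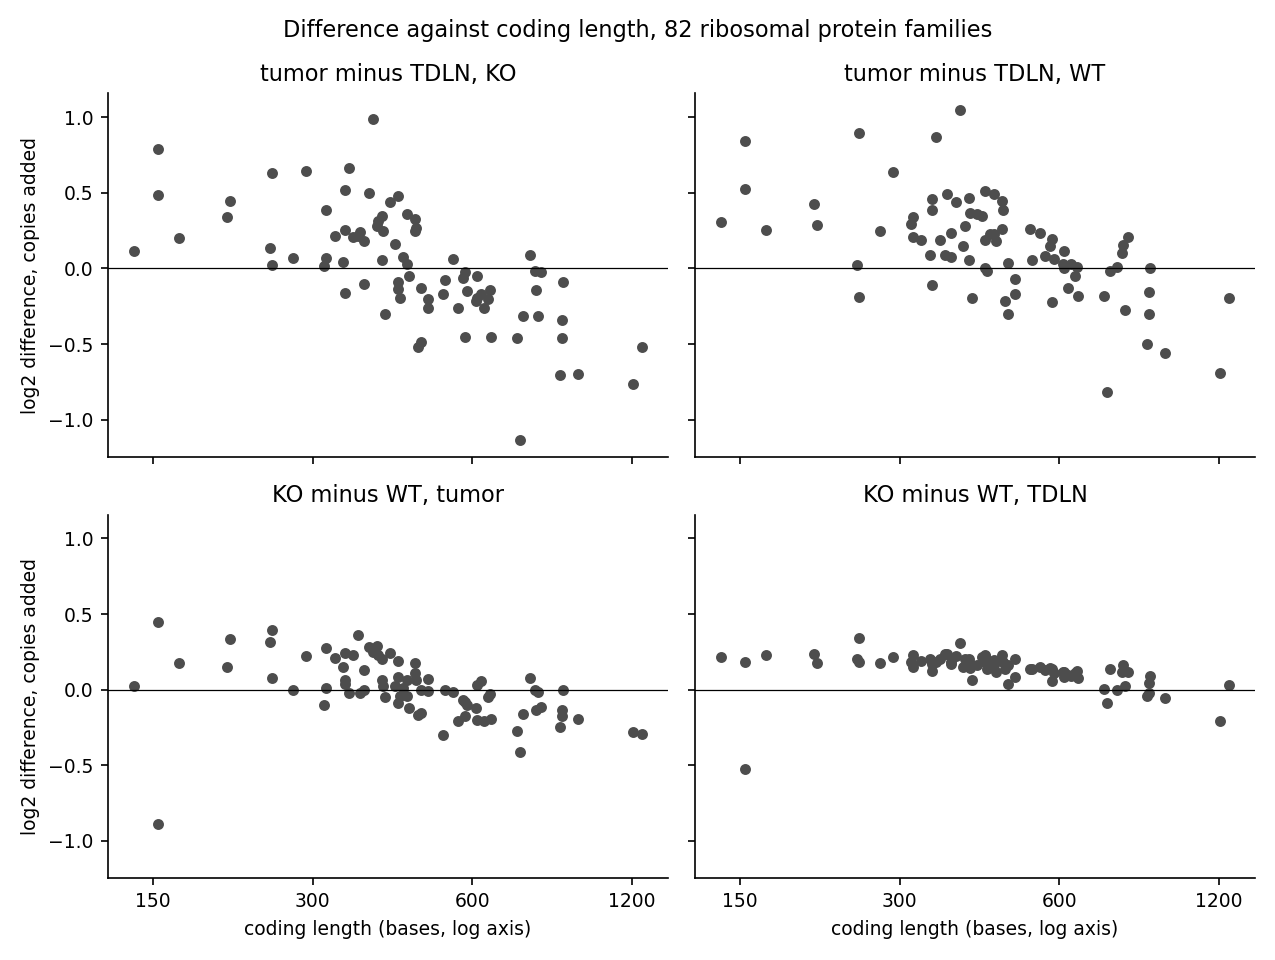
Log2 difference of 82 ribosomal protein families with copies added (vertical axis) against coding length in bases (horizontal log axis), for tumor minus TDLN in KO and WT (top) and KO minus WT in tumor and TDLN (bottom). Points fall to the right in all 4 panels, with Spearman's rho of -0.73, -0.64, -0.65 and -0.72.

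The comparison of KO with WT asks whether the deletion of TrIP changes these transcripts within a tissue. In tumor, 0 of 90 genes were called by limma, as were 0% of all genes, and 1 had an unadjusted p under 0.05, as did 1004 of all 16065. That gene was Rps12, a small subunit protein that in Drosophila is needed for cells with ribosomal protein mutations to be outcompeted. It stood at 1614, 1491 and 1282 normalized counts in KO tumor, against 815, 1022 and 1285 in WT tumor. The groups nearly part, with KO tumor replicate 3 and WT tumor replicate 4 about level. KO minus WT was 0.50 on the log2 scale (95% interval 0.02 to 0.98, limma adjusted p = 0.775), and with its 23 copies, which hold most of its family, it was 0.29 (limma adjusted p = 0.799). Of the 90 genes, 66 lay above 0 with a median of 0.11, and with copies added 40 of 82 families did, with a median of 0.00. In these libraries 19 of 20 macrophage and monocyte markers and 1 of 16 CD8 T-cell markers lay above 0, and the CD8 markers together held 0.509% to 0.562% of values in KO tumor, against 0.642% to 0.781% in WT tumor. Their part in the difference was not tested.

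Rpl22 was among the genes of next smallest p in tumor. It stood at 11422, 10861 and 8360 normalized counts in KO tumor and 7829, 6320 and 9579 in WT tumor, a log2 difference of 0.38 (95% interval -0.05 to 0.80, limma adjusted p = 0.792). In the other direction, the smallest p belonged to Rpl7l1 at -0.34, Rpl39l at -0.89 and Rps18-ps6 at -0.21 (limma adjusted p from 0.811 to 0.813). Values of KO and WT tumor overlapped for all but 3 genes, Rpl10a, Rpl12 and Rplp2, which were higher in every KO tumor library; groups that did not overlap, KO higher, made up 4.1% of all genes tested. No ribosomal protein gene was lower in every KO tumor library, against 3.37% of all genes.

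In TDLN, 0 of 90 genes were called by limma, as were 0% of genes in all, and an unadjusted p under 0.05 was reached by 0 of them and by 123 of all 16065. The differences were small and mostly of 1 sign: 81 of 90 lay above 0, with a median log2 difference of 0.14, where the median of all genes was 0.00. With copies added, 75 of 82 families lay above 0, with a median of 0.16. In 17 genes every KO TDLN value lay above every WT TDLN value, against 3.17% of all genes tested, and in 0 every KO value lay below, against 3.18%. Rpl41, the shortest ribosomal protein, stood at 72867, 75882 and 77592 normalized counts in KO TDLN, against 71794, 53744 and 70934 in WT TDLN. KO lay just above WT replicates 1 and 4, and WT TDLN replicate 3 was far lower. KO minus WT was 0.22 on the log2 scale (95% interval -0.08 to 0.51, limma adjusted p = 1).

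The size of these differences moved with WT TDLN replicate 3. Without it the median over the 90 genes was 0.04 and 63 lay above 0, and rho with coding length was -0.20 in place of -0.72. Without the 4 libraries with Xist the median was 0.04, 79 lay above 0 and rho was -0.53. In tumor, rho was -0.36 without WT tumor replicate 3, against -0.65 with all 6 libraries, and the median was 0.08, against 0.11. Among the other genes of smallest p in TDLN, Rpl35 had a log2 difference of 0.23 and Rps23rg1, a retrogene of Rps23, 0.31, while Rpl3 had -0.21 and Rpl39l -0.53 (limma adjusted p = 1 for each). All 9 B-cell markers tested lay above 0 in KO minus WT TDLN, with a summed 0.0277% to 0.0458% in KO TDLN, against 0.0229% to 0.0311% in WT TDLN, and their part was not tested. Rps19bp1, which is not a ribosomal protein, had -0.14 in TDLN, -0.20 in tumor and tissue differences of -0.14 in KO and -0.09 in WT.

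Whether the KO effect differed between tissues was tested as an interaction, tumor minus TDLN, and limma called 0 of 90 genes, as it did 0% of all genes. An unadjusted p under 0.05 was reached by 0 of the 90 and by 465 of all 16065. Of the 90 genes, 42 lay above 0 with a median of -0.01, and with copies added 16 of 82 families did, with a median of -0.14 and 0 called. Among the genes of smallest p were Rps12 at 0.36 and Rpl23 at 0.21 in one direction and Rpl18 at -0.25 and Rps18-ps6 at -0.31 in the other (limma adjusted p = 1 for each). The 95% interval of Rps12 ran from -0.32 to 1.05 and that of Rpl18 from -0.65 to 0.16, so differences of moderate size were not detectable at this spread.

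Other genes of the translation machinery set the ribosomal proteins in context between tissues. The 78 mitochondrial ribosomal proteins, which build the separate ribosome of that organelle, were called in 1 direction: 33 were lower and 0 higher in KO tumor than in KO TDLN, and 16 were lower and 0 higher in WT tumor than in WT TDLN. Of all genes, 12.6% were called lower and 18.1% higher in KO, and 10.9% and 15.9% in WT. Of the 78, 11 lay above 0 in KO and 12 in WT. Their median log2 difference was -0.59 in KO and -0.42 in WT, against 0.14 and 0.18 for the cytosolic genes. Mrps27, a small subunit member, had the largest difference in KO at -1.36 (limma adjusted p = 0.0216). Mrpl18 was lower in both, at -1.17 in KO (limma adjusted p = 0.000492) and -1.01 in WT (limma adjusted p = 0.0015). A test of the difference between the 2 sets was not run.

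Of 30 further TOP transcripts, 10 were higher and 1 lower in KO tumor, and 7 higher and 1 lower in WT tumor, with medians of 0.24 and 0.22. Of all genes, 18.1% were called higher and 12.6% lower in KO, and 15.9% and 10.9% in WT. The share called higher was thus larger among these transcripts in both genotypes. Tpt1, the translationally controlled tumor protein, was higher at 1.03 in KO (limma adjusted p = 0.00342) and 0.92 in WT (limma adjusted p = 0.00725). Pabpc1, the cytoplasmic poly(A)-binding protein, was higher at 1.32 and 0.95 (limma adjusted p = 0.000884 and 0.00719). Fau, picked after its values were seen because it encodes a small subunit protein under another name, was higher at 0.37 and 0.43 (limma adjusted p = 0.0483 and 0.028), and Eef1d, a subunit of the elongation factor exchange complex, was lower at -0.80 and -0.72 (limma adjusted p = 0.0212 and 0.0375). Of 16 host genes of small nucleolar RNAs, 9 were higher in KO tumor and 7 in WT tumor with 0 lower in either, against those same shares of all genes. Snhg18 was higher at 3.33 in KO and 2.81 in WT (limma adjusted p = 0.000443 and 0.00152), and Zfas1 was higher at 1.33 and 1.35 (limma adjusted p = 0.000292 and 0.000323).

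The counts that follow are to be read against 18.1% higher and 12.6% lower of all genes in KO, and 15.9% and 10.9% in WT. Of 61 ribosome biogenesis genes, 3 were higher and 7 lower in KO tumor and 1 higher and 5 lower in WT tumor, so their share called higher was below that of all genes and their share called lower was no larger. Tcof1, the nucleolar protein treacle, was lower at -0.97 in KO and -0.62 in WT (limma adjusted p = 0.00166 and 0.0209). Utp20, which acts in small subunit processing, was higher in KO tumor at 1.04 (limma adjusted p = 0.0224), and Riok1, a kinase of late small subunit maturation, was higher in WT tumor at 0.78 (limma adjusted p = 0.0188). Among 25 mTORC1 and TOP regulators tested, 7 were higher and 2 lower in KO tumor, and 5 higher and 3 lower in WT tumor. Mxd1, a repressor that competes with Myc for its partner Max, was higher at 3.61 in KO and 3.60 in WT (limma adjusted p = 5.68e-05 and 7.14e-05). Eif4ebp1, the cap-binding inhibitor that mTORC1 switches off, was higher at 1.78 and 1.61 (limma adjusted p = 0.00841 and 0.0155). Larp1, which holds TOP transcripts when mTORC1 is inactive, was higher in KO tumor at 0.75 (limma adjusted p = 0.0279) and stood at 0.17 in WT (limma adjusted p = 0.612), and Myc had 0.78 and 0.25 (limma adjusted p = 0.135 and 0.65). Of 35 initiation factors, 4 were higher and 3 lower in KO tumor and 3 higher and 2 lower in WT tumor, and Eif4g3, a scaffold of the cap-binding complex, was higher at 0.91 and 1.24 (limma adjusted p = 0.00967 and 0.0019). Eif2b1, a subunit of the exchange factor for eIF2, was lower at -0.90 and -0.92 (limma adjusted p = 0.00235 and 0.0023). Of 8 elongation factors, 0 were higher and 2 lower in each genotype, Eif5a and Eef1d. Of 18 ribosome quality control genes, 4 were higher and 0 lower in KO tumor and 2 higher and 1 lower in WT tumor, with Map3k20, the kinase ZAK that senses collided ribosomes, at 3.80 and 3.22 (limma adjusted p = 0.000167 and 0.000617).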

How the data were processed

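RNA of sorted cells was sequenced with a stranded polyA mRNA kit, per the labels' protocols. The deposited table is a signal per gene, normalized counts exported from Partek as its name says, by a normalization that neither labels nor header give. From the values, each column looks like a read estimate divided by 1 factor per library: under 50 reads, 87.1% to 89.6% of values were whole within 0.01 reads. The rest are fractional, so no count model was used and depths are estimates. The submitters' processing notes name GRCm38 and GRCm39 and no step they belong to; which aligner and gene counter were run is not given in the sources used here.

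All 16065 genes averaging 1 CPM or more were tested after adding 24.9 normalized counts, 1 CPM, and taking log2, so fold changes of low genes are understated. One limma 3.58.1 model (R 4.3.3) over all 12 libraries, with 1 term per group and an intensity trend, gave two-sided p-values, adjusted by Benjamini and Hochberg within a comparison at 0.05. Copies were found with blastn 2.17.0 in GENCODE M21 transcripts. Groups come from the labels. Recovery was tested on simulated data. The members and lists were chosen with earlier results of these data known. Named genes are Rpl18, up to 6 called genes without overlap by size per genotype and direction between tissues, the 3 of smallest p per direction elsewhere, a fixed list of stalk proteins, well-studied members and paralogs, and up to 3 called genes of each other list; calls counted over these genes are also listed by name. Alternatives changed scaling, pseudocount, filter, model, libraries and copies. Some genes that these rules take are not reported here.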

Additional observations from a re-analysis of the deposited data

How the results depend on the processing

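For KO tumor against KO TDLN, where 11 genes were higher and 2 lower, a common column total gave 7 lower (7 also without the ribosomal protein genes in the total), a common upper quartile 5 lower and no filter on low values 1 lower. Fitting only the compared groups gave 17 higher and 5 lower, no intensity trend 5 and 1, array weights 22 and 7, near-identical copies added 6 and 10, leaving out the 4 libraries with Xist 22 and 7, Xist as a term 19 and 5, and a threshold of 0.01 3 and 1. Of all 16065 genes, 2950 were higher and 2411 lower without the libraries with Xist, and 3157 and 2433 with Xist as a term. In both settings the share called higher was larger among the ribosomal protein genes. Of all genes, 3278 were higher and 2444 lower with only the compared groups, 3913 and 3176 with array weights, and 2660 and 2400 on a common column total. Without the ribosomal protein genes in that total, 2674 were higher and 2391 lower. No intensity trend gave 2792 and 1829 over all genes, and a threshold of 0.01 gave 1727 and 796. With copies added, 2867 and 1970 of 15286 rows were called. Lower calls over all genes were 2189 on a common upper quartile, and 1712 of 26962 with no filter. Leaving out each library in turn gave 3 to 13 higher and 1 to 3 lower. For WT tumor against WT TDLN, where 10 were higher and 3 lower, a common column total gave 5 and 5 (5 and 5 also without the ribosomal protein genes), only the compared groups 4 and 0, no intensity trend 5 and 1, a threshold of 0.01 2 and 0, no filter 1 lower, leaving out the libraries with Xist 5 lower and Xist as a term 17 higher. Of all 16065 genes, 2119 were higher and 2522 lower in WT on a common column total, and 1845 and 1052 with only the compared groups. With Xist as a term 2835 were higher, a smaller share than among the ribosomal protein genes. Without the ribosomal protein genes in the total, 2121 of all genes were higher and 2516 lower. No intensity trend gave 2448 and 1660 over all genes in WT, and a threshold of 0.01 gave 1408 and 751. Lower calls over all genes in WT were 1801 without the libraries with Xist, and 1459 of 26962 with no filter. Leaving out each library in turn gave 2 to 16 higher and 0 to 4 lower, and the libraries that moved these counts are named in the results. The settings with copies and with Xist were chosen after seeing the data. Genotype and interaction comparisons had 0 ribosomal protein genes called under every setting run. Over all genes a few settings gave calls. For KO against WT in tumor, no filter gave 5 higher and 1 lower, and leaving out WT tumor replicate 1 gave 10 higher, or 6 with copies added. For KO against WT in TDLN, copies added without WT TDLN replicate 3 gave 1 higher. For the interaction, no filter gave 1 higher. No label says that a number is 1 mouse, so the numbers were not taken as pairs. Same-numbered tumor and TDLN libraries had deviations from their group means that correlated at -0.04 to 0.20, highest for WT replicate 3. Not every library correlated best with its own number. With 3 libraries a group, such correlations cannot exclude pairing. With a replicate block, 13 genes were higher and 2 lower in KO and 15 higher and 1 lower in WT. Of all 16065 genes, 2751 were then higher and 1896 lower in KO, and 2415 and 1661 in WT. The genes' median difference in WT was 0.00 on a common column total, with or without the ribosomal protein genes, against 0.18 as deposited. Over the named genes, 3802 of 3935 recomputed values kept their side of the threshold, 86 lost it, 47 gained it and 0 called values changed sign. Most of the 3935 were not called at the start and could not lose a call, so this total does not measure how firm the calls were. All 86 losses were of calls between tissues. In WT, Rpl26 lost its call under 11 of 21 alternatives and Rplp0 under 10 of 21. The cause of these shifts was not tested. Depth of 18.3 M to 36.9 M reads leaves few reads for Rpl10l, Rpl36-ps4 and Rpl39l only; the limit elsewhere is the 3 libraries per group and the division of reads among copies.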
